A study of Mus musculus with 12 samples.

Results

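Src-family kinases (SFK) are membrane-anchored tyrosine kinases that pass signals from cytokine, Fc and adhesion receptors, and their activity is set by a tyrosine in the C-terminal tail. Csk, the C-terminal Src kinase, phosphorylates that tyrosine and closes the kinase, whereas phosphatases such as CD45 (Ptprc) remove the phosphate and open it. Downstream, the phosphatases SHP-1 (Ptpn6) and SHIP-1 (Inpp5d) are recruited to inhibitory receptors that SFK, in blood cells mainly Lyn, have phosphorylated, and there they end the signal. In CML cells, Lyn is known as an SFK that acts beside BCR::ABL1. The mRNAs of 5 kinases (Lyn, Fgr, Fyn, Src and Yes1) and 3 inhibitors (Csk, Ptpn6 and Inpp5d) were followed here, 8 of the 56748 genes counted, chosen by symbol and matched to the Ensembl gene identifiers of the count tables.

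RNA-seq was carried out on donor-derived (CD45.2+) Lin-Sca+Kit+ (LSK) bone marrow cells, the fraction that holds stem cells and early progenitors. Donor marrow came from SCLtTA/BCR-ABL mice carrying CD45.2, in which the SCL promoter drives the tetracycline transactivator, so that BCR::ABL1 is made in primitive blood cells once tetracycline (TET) is removed. It was given to CD45.1 B6.SJL recipients aged 8 to 12 weeks that had received 2 doses of 4.25 Gy, and all recipients had 2 weeks on TET. For the 6 CTRL samples TET was kept on (BCR::ABL1-), and for the 6 CML 2wk samples it was withdrawn for 2 weeks (BCR::ABL1+). CTRL cells carry the same transgenes. Per the study's methods the donor cells were a frozen pool from several mice of both sexes, and by that account replicates are not separate donors. The labels do not say that each library is a single recipient. The p-values measure the spread between these samples.

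Depth was 22804754 to 41832868 counts per CTRL library and 16150817 to 25070105 per CML 2wk library. The labels give CTRL as male and CML 2wk as female, so sex as labelled and BCR::ABL1 cannot be told apart, yet Xist was high in all 12 libraries (2152 to 4574 CPM, counts scaled to 1000000 per library) and Ddx3y reached at most 24 counts in CTRL and 202 in CML 2wk, the latter in replicate 2. Because the sorted cells are donor-derived, the CTRL libraries go against the male label if it is that of the donor cells. They do not if it is that of the recipient. Male cells from a donor pool of both sexes would also carry Ddx3y, whose median was 1 count in CTRL and 0 in CML 2wk. The mixed pool described in the methods is therefore not borne out by these counts. CML 2wk replicate 2 stood apart: its summed CPM over 8 stromal marker genes was 818 and that of replicate 4 was 379, against 175 to 248 in the other 10 libraries. In CTRL most of that sum was Pecam1 and Pdgfrb, at means of 120 and 76.8 CPM. Results whose call or size turns on these libraries are given below with and without them. Of the genes that define the gate, Kit fell from 749 to 412 CPM on average (log2 fold change -0.86, adjusted p = 4.7e-06, edgeR), and Ly6a, which encodes Sca-1, was at 34.4 and 44.8 CPM (adjusted p = 0.0660, edgeR).

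BCR::ABL1+ LSK cells held less mRNA of Csk, Inpp5d and Fyn, whereas Lyn, the most abundant SFK, differed by less than the spread between libraries. Of the 8 genes, 3 passed the test (Benjamini-Hochberg adjusted p under 0.05, edgeR quasi-likelihood test over 18438 genes; levels are CPM scaled by TMM factors), and all 3 were lower; no member was called higher. Over all genes tested 59.5% were called, 30.6% higher and 29.0% lower, so 3 of 8 is a smaller share than that of all genes, and 3 of 8 lower is near it. The median log2 fold change of the 8 was -0.59, beside 0.07 over all genes. The same 3 genes were the members whose groups of 6 did not overlap in CPM, which held for 37.6% of all genes in either direction and for 20.6% with CML 2wk lower.

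**Figure D1:**
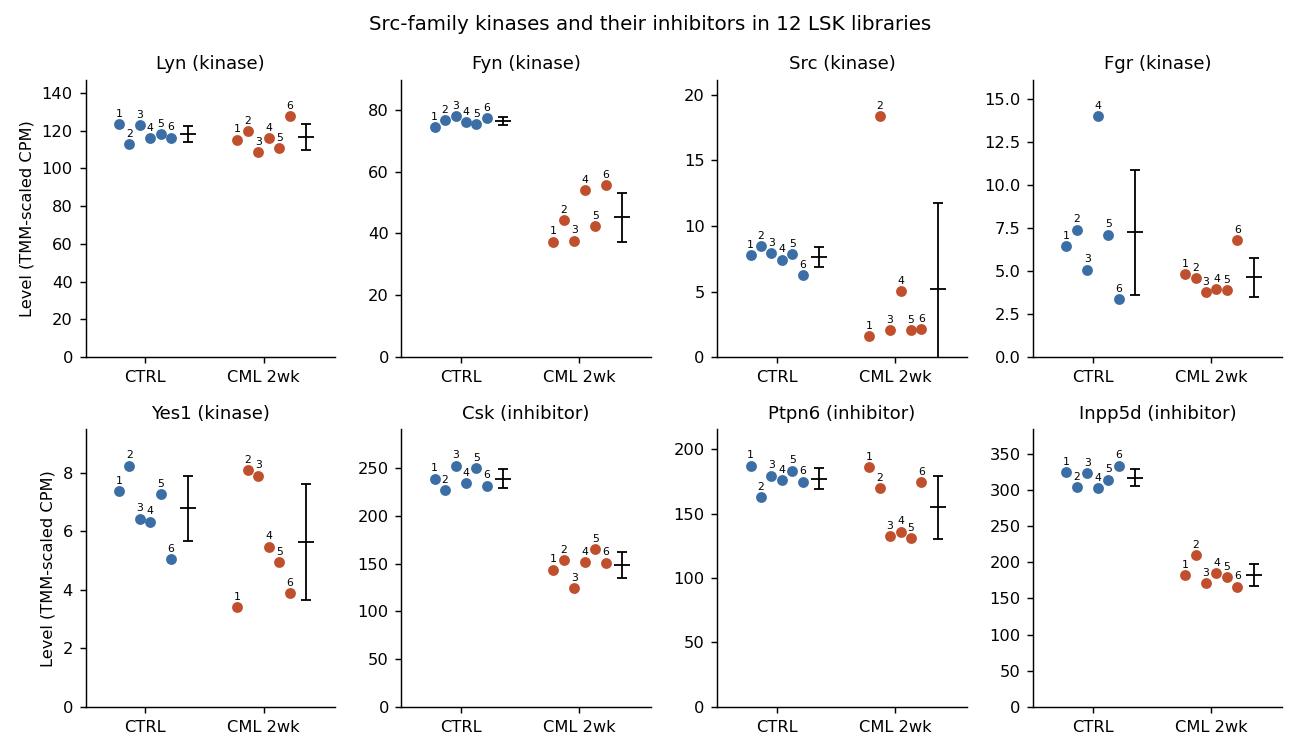
Level of each member in every library, in CPM scaled by TMM factors (y axis, from 0); numbers beside the points are the replicate numbers, and the bar beside each group is the mean ± SD of 6 libraries (the lower end of the Src bar lies below 0 and is not drawn). The CML 2wk points of Fyn, Csk and Inpp5d lie below every CTRL point, those of Lyn cover the same range, and in Src replicate 2 alone sits at 18.4.

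Csk encodes the kinase that switches all SFK off (ENSMUSG00000032312). Its level was 227 to 253 CPM in CTRL with a median of 237, and 124 to 165 CPM in CML 2wk with a median of 151. Every CML 2wk library was below every CTRL library. The mean fell from 239 ± 10.3 to 148 ± 13.5 CPM (SD, n = 6 each), a log2 fold change of -0.69 (SE 0.0659, adjusted p = 7.1e-07, edgeR), so that Csk fell by 38.0%. The exact two-sided permutation test of log2 CPM over the 924 ways to split 12 libraries gave p = 0.00216, the smallest it can give. Over the 20 alternative fits the adjusted p of Csk ranged from 3.1e-21 to 4.1e-05.

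Inpp5d encodes SHIP-1, which removes the 5-phosphate of PIP3 and so opposes PI3-kinase (ENSMUSG00000026288). It was the most abundant member by CPM in CTRL, at 302 to 333 CPM with a median of 318. In CML 2wk it was at 166 to 210.2 CPM with a median of 180.5, and the highest of these, replicate 2, was still far under the lowest CTRL library. The log2 fold change was -0.80 (SE 0.0624, adjusted p = 1.4e-07, edgeR; exact p = 0.00216), from 317 ± 12.3 to 182 ± 15.4 CPM, so that it fell by 42.5%. Its adjusted p ranged from 2.4e-35 to 1.8e-05 over the alternatives.

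Fyn is the second SFK of LSK cells (ENSMUSG00000019843) and is best known for signalling beside antigen and Fc receptors. CTRL libraries agreed closely, at 74.2 to 78.0 CPM with a median of 76.3, a coefficient of variation of 1.74%. CML 2wk libraries ran from 37.4 to 55.5 CPM with a median of 43.3 and a coefficient of variation of 17.4%, replicates 4 and 6 being the highest. The groups did not overlap. The log2 fold change was -0.75 (SE 0.0936, adjusted p = 8.0e-06, edgeR; exact p = 0.00216), so that Fyn fell by 40.7%, and the adjusted p ranged from 1.9e-13 to 5.7e-05 over the alternatives.

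These 3 falls were also present in both sets of library numbers that came with the tables, in which replicate 6 of each group lies apart from replicates 1 to 5. In replicates 1 to 5 the differences of mean log2 CPM were -0.71 for Csk, -0.76 for Inpp5d and -0.83 for Fyn, each at exact p = 0.00794, the smallest that 5 against 5 allows. In the single replicate 6 pair they were -0.62, -1.004 and -0.48. The falls were accompanied by lower levels of LSK marker genes, 8 of 9 of which were called lower, with a summed level of 2375 to 2751 CPM in CTRL and 1199 to 1656 CPM in CML 2wk. Mast cell and basophil markers were called higher for 8 of the 10 tested (summed 100.4 to 201 and 434 to 2603 CPM, highest in replicate 2), with none of them under 1 CPM in every library. Erythroid markers were called lower for 7 of 8 (summed 90.7 to 193 and 18.1 to 43.5 CPM), and megakaryocyte markers for 6 of 7 tested (summed 274 to 314 and 117 to 311 CPM), with Gp1bb under 1 CPM in every library. Beside these counts stand 29.0% lower and 30.6% higher over all genes tested. Mitochondrial genes took 0.816% to 1.29% of counts in CTRL and 2.26% to 2.97% in CML 2wk. Genes with counts numbered 26783 to 28602 in CTRL and 22965 to 25726 in CML 2wk. Neither of these measures overlapped between the groups. The part of the markers, the mitochondrial share and the depth in the falls was not tested, and in bulk RNA fewer cells of a type and less RNA per cell cannot be told apart.

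The sequence just upstream of the start is shown for the 3 genes that fell together and for Ptpn6, the inhibitor that did not pass the test, so that they can be set side by side. RefSeq start sites (GRCm38.p6) were given for 7 of the 8 members, with 2 starts for Csk and none for Lyn. Each run covers the 250 bases before the start, 5′ to 3′ on the strand of the gene: Inpp5d at chr1:87620062-87620311 (plus strand), Csk at chr9:57653632-57653881 for the upstream start and at chr9:57645654-57645903 for the downstream start (minus strand), Fyn at chr10:39369549-39369798 (plus strand) and Ptpn6 at chr6:124738710-124738959 (minus strand). Capitals mark matches, on either strand, to any of 7 short motifs, namely GAGGAA (the PU.1 core), CCGGAAGT (an ETS site), TGTGGT (the RUNX motif), CACGTG (the E box), GGGCGG (the GC box), AGATAA (the GATA motif) and the CCAAT box.
Inpp5d: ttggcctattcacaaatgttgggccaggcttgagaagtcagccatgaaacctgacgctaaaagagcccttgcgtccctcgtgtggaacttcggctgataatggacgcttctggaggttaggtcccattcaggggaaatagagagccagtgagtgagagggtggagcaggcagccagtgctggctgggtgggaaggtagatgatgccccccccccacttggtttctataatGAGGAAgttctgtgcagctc
Csk upstream start: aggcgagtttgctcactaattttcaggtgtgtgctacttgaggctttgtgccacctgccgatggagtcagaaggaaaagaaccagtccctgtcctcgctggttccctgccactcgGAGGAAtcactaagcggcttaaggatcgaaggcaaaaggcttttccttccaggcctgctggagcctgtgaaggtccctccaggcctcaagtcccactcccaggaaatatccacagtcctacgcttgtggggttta
Csk downstream start: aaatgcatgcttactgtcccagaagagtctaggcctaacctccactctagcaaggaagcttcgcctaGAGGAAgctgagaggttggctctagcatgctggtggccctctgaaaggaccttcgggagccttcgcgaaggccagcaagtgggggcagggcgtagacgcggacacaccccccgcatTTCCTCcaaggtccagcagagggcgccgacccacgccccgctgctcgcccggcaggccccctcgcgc
Fyn: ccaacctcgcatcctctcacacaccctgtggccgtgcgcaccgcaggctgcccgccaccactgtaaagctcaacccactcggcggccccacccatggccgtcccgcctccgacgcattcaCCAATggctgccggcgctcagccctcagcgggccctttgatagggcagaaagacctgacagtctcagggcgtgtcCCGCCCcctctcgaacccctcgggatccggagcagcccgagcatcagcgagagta
Ptpn6: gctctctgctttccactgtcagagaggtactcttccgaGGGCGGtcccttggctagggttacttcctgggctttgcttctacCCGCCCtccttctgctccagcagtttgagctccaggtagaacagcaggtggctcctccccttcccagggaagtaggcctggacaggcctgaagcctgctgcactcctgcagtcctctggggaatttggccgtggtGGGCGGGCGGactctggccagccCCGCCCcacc

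The window of Inpp5d held a single PU.1 core, 20 to 15 bases before the start. The Csk windows held 1 PU.1 core at the upstream start and 2 at the downstream start, 183 to 178 and 67 to 62 bases before it. Of all 32851 promoter windows of this length 23.3% held a PU.1 core. Neither Fyn nor Ptpn6 matched it. Fyn held a CCAAT box (33.8% of all windows) and a GC box (32.7% of all windows), and Ptpn6 held 5 GC box matches, of which a pair overlaps. None of these 5 windows matched the ETS site (2.88% of all windows), the RUNX motif (14.0%), the E box (6.02%) or the GATA motif (9.99%). CpG dinucleotides numbered 5 in Inpp5d, 7 and 16 in Csk, 21 in Fyn and 7 in Ptpn6, against a median of 6 over all windows. No motif searched was matched in all 3 of Inpp5d, Csk and Fyn. A match is a run of letters in a window and was not measured as binding.

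Lyn (ENSMUSG00000042228), the SFK that couples to Fc receptors and c-Kit and also phosphorylates inhibitory receptors, was at 113 to 123 CPM in CTRL with a median of 117, and at 109 to 128 CPM in CML 2wk with a median of 116. The ranges overlapped almost completely. The log2 fold change was -0.02 (SE 0.0528, adjusted p = 0.730, edgeR; exact p = 0.556), and 2 SE either side of it spans 0.915-fold to 1.06-fold, so a change of the size seen in Csk, Inpp5d or Fyn lies outside this interval. No alternative called Lyn, and its adjusted p ranged from 0.25 to 0.95 over them.

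Ptpn6 (ENSMUSG00000004266), which encodes SHP-1, the tyrosine phosphatase that docks on ITIM receptors, was at 163 to 187 CPM in CTRL with a median of 178. In CML 2wk it split: replicates 1, 2 and 6 were at 186, 169.7 and 174 CPM, inside the CTRL range, and replicates 3, 4 and 5 were at 131 to 136 CPM, below it. The mean was 177 ± 8.52 and 155 ± 24.4 CPM, and the log2 fold change of -0.19 (SE 0.0906) did not pass the test (adjusted p = 0.0780, edgeR; exact p = 0.0801). The call turned on the setting, with adjusted p from 0.0205 to 0.205 over the alternatives.

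The remaining kinases were sparse. Src (ENSMUSG00000027646), the founding member of the family, was at 6.26 to 8.48 CPM in CTRL with a median of 7.85. In CML 2wk it was at 1.59 to 2.12 CPM in replicates 1, 3, 5 and 6, at 5.05 CPM in replicate 4 and at 18.4 CPM in replicate 2, for a median of 2.10. Thus 5 libraries lay below every CTRL library and 1 lay above all of them. Over all 12 libraries the log2 fold change was -0.54 (SE 0.512, adjusted p = 0.379, edgeR), whereas the exact test on log2 CPM gave p = 0.0476. That call was lost when any single library other than CML 2wk replicates 2 and 4 was left out (exact p = 0.0649 to 0.117). Without replicate 2 the log2 fold change was -1.58 (adjusted p = 5.1e-05, edgeR), and without replicates 2 and 4 it was -1.96 (adjusted p = 1.3e-07, edgeR). These 2 libraries were the ones with the most stromal marker RNA, and the 3 genes whose deviations from the group means were most like those of Src were Nes, Rhoc and Pls3 (Pearson r 0.989, 0.987 and 0.983, Spearman rho 0.944, 0.902 and 0.902 over 12 libraries; r 0.952, 0.941 and 0.914 without replicate 2). Without replicates 2 and 4 the stromal markers were themselves lower than in CTRL. Of 7 tested, 4 were called lower and 0 higher (median log2 fold change -3.15), beside 29.0% of all genes lower over 12 libraries. The -1.96 of Src is therefore not a comparison at equal stromal marker levels. The part of stromal RNA in the Src level was not tested.

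Fgr (ENSMUSG00000028874), an SFK of mature myeloid cells, was at 3.40 to 14.0 CPM in CTRL with a median of 6.78 and at 3.80 to 6.81 CPM in CML 2wk with a median of 4.27. Every CML 2wk library lay within the CTRL range. The log2 fold change was -0.64 (SE 0.279, adjusted p = 0.0591, edgeR; exact p = 0.113). Here the 2 sets of library numbers differed in direction: replicates 1 to 5 gave -0.83 (exact p = 0.00794), and the replicate 6 pair gave 1.003 on the log2 scale. The highest CTRL library, replicate 4 at 14.0 CPM, also had the highest summed level of 10 neutrophil marker genes, 2577 CPM, and the lowest CTRL values of Fgr, 3.40 CPM in replicate 6 and 5.09 CPM in replicate 3, went with the lowest CTRL sums, 134 and 123 CPM. Within CML 2wk the sums did not order the libraries as Fgr did. Replicate 6 had the highest Fgr, 6.81 CPM, with a sum of 206 CPM. Replicates 1 and 3 had the higher sums of 464 and 325 CPM with Fgr at 4.82 and 3.80 CPM. Neutrophil marker sums were 123 to 2577 CPM in CTRL and 106 to 464 CPM in CML 2wk, with 5 of 10 markers called lower and 1 higher (3 and 1 without CML 2wk replicates 2 and 4). The genes most like Fgr were I830127L07Rik, S100a8 and Lcn2 (Pearson r 0.896, 0.883 and 0.871, Spearman rho 0.832, 0.699 and 0.846, 12 libraries). The part of neutrophil RNA in the Fgr level was not tested. Yes1 (ENSMUSG00000014932), a broadly expressed SFK, was at 5.06 to 8.25 CPM in CTRL and 3.40 to 8.09 CPM in CML 2wk, with medians of 6.85 and 5.22. The log2 fold change was -0.27 (SE 0.214, adjusted p = 0.288, edgeR), and 2 SE either side spans 0.616-fold to 1.11-fold. It was -0.42 without CML 2wk replicate 2 (adjusted p = 0.0739, edgeR), -0.45 without replicates 2 and 4 (adjusted p = 0.0786, edgeR) and -0.17 without replicate 1 (adjusted p = 0.501, edgeR).

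**Figure D2:**
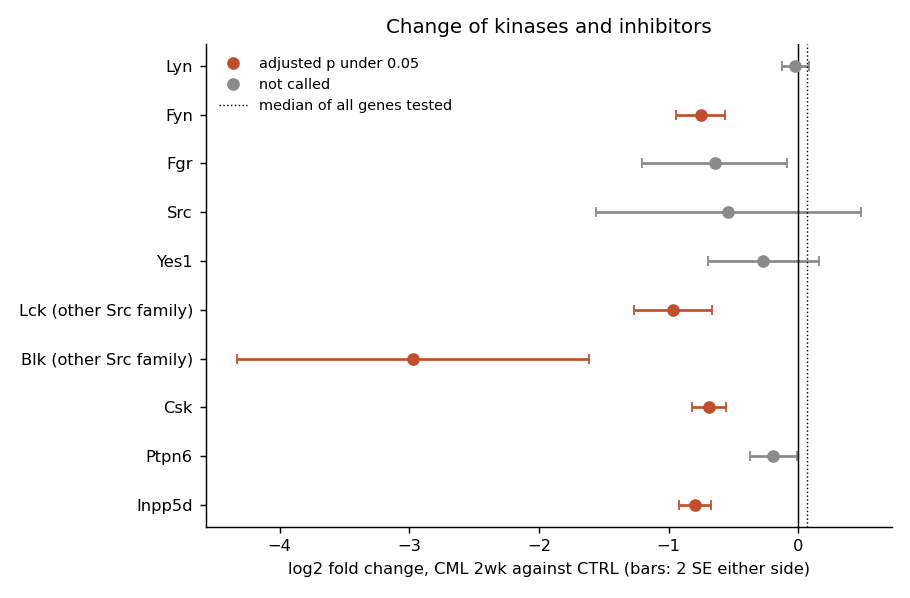
Log2 fold change of CML 2wk against CTRL (x axis) for the 8 members and for Lck and Blk, with bars of 2 SE either side; the dotted line is the median of all genes tested. Lyn sits at 0 with the shortest bar, Csk, Inpp5d and Fyn sit between -0.69 and -0.80, and Src has a bar that reaches from -1.56 to 0.48.

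Of 3 relatives taken by family membership rather than by their values, the 2 that could be tested were called lower. Lck, the SFK of T cells, was at 19.3 to 26.0 CPM in CTRL and 9.01 to 16.5 CPM in CML 2wk, a log2 fold change of -0.97 (SE 0.149, adjusted p = 6.1e-05, edgeR). Its groups did not overlap. Blk, the SFK of B cells, was at 0.641 to 2.87 CPM in CTRL, whereas in CML 2wk it was at 0 in replicate 2, at 1.14 CPM in replicate 4 and at 0.057 to 0.345 CPM in the other 4 libraries, a fitted log2 fold change of -2.97 (adjusted p = 0.0016, edgeR). It was -2.71 without replicate 2, -4.29 without replicate 4 and -3.95 without both. Frk, an epithelial relative, did not pass the filter on low counts and was at 0.0748 to 0.392 CPM in CTRL, with 5.22 CPM in CML 2wk replicate 2 and 1.52 CPM in replicate 4. Lck and Blk were called in all 20 alternatives. B cell markers were called lower for 2 of 8, beside 29.0% of all genes, with sums of 433 to 768 CPM in CTRL and 29.3 to 359 CPM in CML 2wk, the lowest in replicate 2. That count was 0 with DESeq2, 3 without replicate 2, 5 without replicate 4 and 6 without both. Within CML 2wk the sums did not order the libraries as Blk did. Replicates 1 and 3 had sums of 323 and 331 CPM with Blk at 0.057 and 0.061 CPM, and replicate 4 had 298 CPM with Blk at 1.14 CPM. Of 6 T and NK cell markers tested 2 were called higher and 1 lower, with sums of 73.3 to 97.4 CPM and 86.2 to 191 CPM, and Cd3d, Cd3g and Trac were under 1 CPM in every library. Without replicate 2 that count was 1 higher and 2 lower of 7. Over 12 libraries the genes called higher were Nkg7 and Klrb1c, and Cd8a was called lower (log2 fold change -1.89, adjusted p = 0.0115, edgeR). Nkg7 made up most of the sums, with means of 82.7 CPM in CTRL and 121 CPM in CML 2wk. The T cell genes Cd3e, Cd3g and Trac were at -1.01, -0.72 and -0.54 on the log2 scale, none of them called. The part of these cells in the Blk and Lck levels was not tested.

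To compare genes with each other, CPM was divided by the length of each gene's merged exons in kb (GENCODE M21). On this scale of level, Csk was first in CTRL at 64.0 ± 2.74 CPM per kb and Ptpn6 was next at 63.2 ± 3.04, a pair that does not differ beyond its spread, Csk being the higher in 4 of 6 libraries. Inpp5d followed at 41.7 ± 1.61, Lyn at 29.0 ± 1.03 and Fyn at 17.5 ± 0.304. Fgr at 1.88 ± 0.941 and Src at 1.75 ± 0.172 overlapped, and Yes1 was lowest at 0.903 ± 0.146. Csk, Ptpn6, Inpp5d and Lyn were above 96.9%, 96.8%, 94.6% and 91.1% of the 17803 tested genes with a length. In CML 2wk the order changed. Ptpn6 led at 55.3 ± 8.70 and was above Csk, at 39.7 ± 3.61, in 6 of 6 libraries. Lyn at 28.6 ± 1.69 was above Inpp5d, at 24.0 ± 2.02, in 6 of 6 libraries, by 1.065 to 1.435 times, whereas in CTRL Inpp5d had been above Lyn in 6 of 6, by 1.396 to 1.537 times. Merged exon length stands for the transcript here, since isoforms were not counted.

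**Figure D3:**
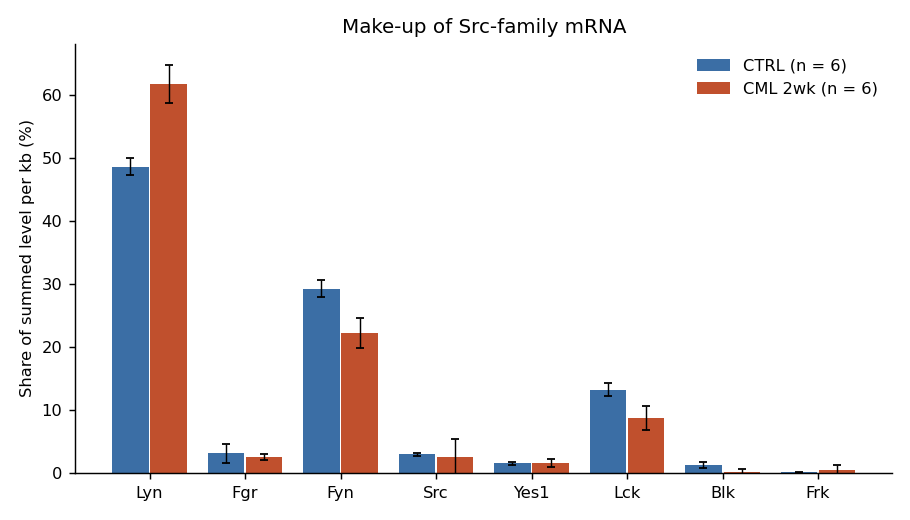
Share of each of 8 SFK in their summed level per kb (y axis, percent; bars are means and error bars the SD of 6 libraries per group). Lyn makes up 48.6% in CTRL and 61.7% in CML 2wk, and Fyn is next at 29.3% and 22.2%.

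The make-up of SFK mRNA shifted accordingly. The summed level of the 5 kinases with Lck, Blk and Frk was 59.8 ± 2.26 CPM per kb in CTRL and 46.5 ± 4.68 in CML 2wk. Lyn took 46.3% to 50.4% of it in CTRL and 58.6% to 65.2% in CML 2wk, with no overlap. Fyn took 27.6% to 31.2% and 19.5% to 25.4%, and Lck took 11.5% to 14.4% and 6.23% to 11.2%. Fgr reached at most 5.90% and Yes1 at most 2.57%, and Src was at 2.53% to 3.37% in CTRL and at 0.827% to 8.38% in CML 2wk, the highest in replicate 2.

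Ratios of counts within a library do not depend on depth or scaling, and were formed for 8 pairs of a kinase and an inhibitor or a second kinase. The ratio of Lyn to Csk was 0.472 to 0.516 in CTRL and 0.671 to 0.872 in CML 2wk. No library of either group reached the other, and the mean log2 ratio was higher by 0.67 (exact two-sided permutation p = 0.00216, adjusted over 8 ratios 0.0058). The ratio of Lyn to Inpp5d was 0.349 to 0.384 in CTRL and 0.571 to 0.769 in CML 2wk, higher by 0.78 on the log2 scale (exact p = 0.00216, adjusted 0.0058). The ratio of Lyn to Fyn was 1.47 to 1.66 and 2.15 to 3.08, higher by 0.75 (exact p = 0.00216, adjusted 0.0058). Lyn therefore differed from Csk, from Inpp5d and from Fyn in how it changed. Against Ptpn6 the ratio was 0.644 to 0.693 and 0.621 to 0.854, a difference of 0.18 that did not hold after adjustment (exact p = 0.0476, adjusted 0.0952).

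**Figure D4:**
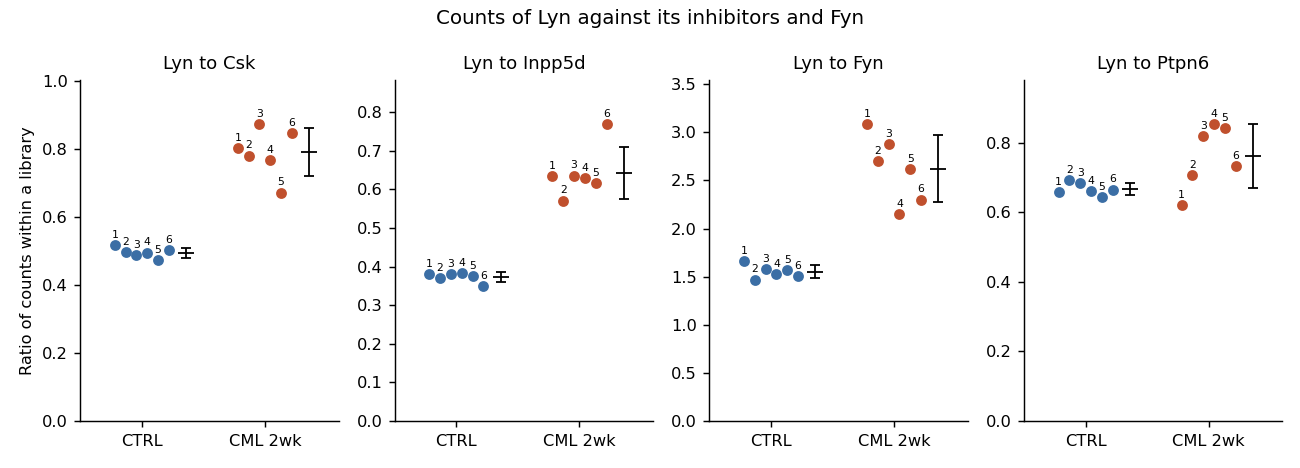
Ratio of Lyn counts to those of Csk, Inpp5d, Fyn and Ptpn6 within each library (y axes, from 0; a count of 0.5 was added to each gene), with replicate numbers beside the points and the mean ± SD of 6 libraries. The first 3 panels show no overlap between groups, and in the last the CML 2wk libraries run from 0.621 to 0.854.

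Relative to Csk the other kinases showed no difference that passed the test. The ratio of Fyn to Csk was 0.302 to 0.338 in CTRL and 0.257 to 0.368 in CML 2wk, a log2 difference of -0.08 (exact p = 0.420). That of Yes1 to Csk differed by 0.37 (exact p = 0.203) and that of Fgr to Csk by 0.16 (exact p = 0.619). Src to Csk differed by -0.49 over all libraries (exact p = 0.385) and by -0.97 without CML 2wk replicate 2 (exact p = 0.0130), the library whose ratio of 0.120 was the highest of the 12.

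Among themselves the members deviated from their group means in different ways, given here as descriptions over 12 libraries that share depth and scaling. Lyn and Ptpn6 deviated together (Pearson r 0.689, and 0.668 without CML 2wk replicate 2), as did Lyn and Fyn (0.600 and 0.619). Csk and Inpp5d, which both fell, had an r of 0.329 (0.300 without that library), and Fyn and Inpp5d had an r of -0.07. For Src and Inpp5d r was 0.757 with and 0.167 without replicate 2. Among 15851 genes at a mean of 1 CPM or more, those most like Lyn were Tmx2, Snx6 and H2-T22 (r 0.960, 0.957 and 0.949; rho 0.930, 0.951 and 0.930). For Csk they were Nup62, Wac and Tmco4 (r 0.941, 0.934 and 0.931; rho 0.909, 0.895 and 0.860). For Ptpn6 they were Sec61a1, Canx and Lipa (r 0.966, 0.965 and 0.964; rho 0.937, 0.986 and 0.965), the first of which encodes a translocon subunit and the second calnexin. For Inpp5d they were Tph1, Foxk1 and Cpa3 (r 0.966, 0.962 and 0.953, rho 0.914, 0.923 and 0.881), and r was 0.913, 0.897 and 0.899 without replicate 2. Tph1 and Cpa3 are mast cell genes. Between the groups they went the other way, with log2 fold changes of 9.40 and 2.57, whereas Foxk1 and Inpp5d were at -0.94 and -0.80. For Fyn they were Aif1, Kcnk5 and Gm4951 (r 0.958, 0.950 and 0.947; rho 0.881, 0.692 and 0.804), and Yes1 had Gm48961 and Gm7972 among its 3 (r 0.907 and 0.906; rho 0.874 and 0.790).

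Around the kinases, proteins that hold Csk at the membrane or end SFK signalling were mostly lower. Of 13 such genes 7 were called lower and 1 higher (median log2 fold change -0.30). Cbl, the ubiquitin ligase that marks activated kinases for degradation, fell from 368 ± 13.4 to 217 ± 17.2 CPM (log2 fold change -0.76, adjusted p = 1.7e-07, edgeR). The adaptor Lax1 fell by 0.92 and Dok2, a RasGAP adaptor, fell by 0.72 on the log2 scale. Pag1, the transmembrane anchor of Csk, fell from 172 ± 6.27 to 113 ± 11.2 CPM (-0.61), and Matk, the relative of Csk, from 52.4 ± 2.44 to 34.8 ± 4.23 CPM (-0.59); both lie outside the rule for named genes and were picked after their values were seen. Sla, which encodes the adaptor SLAP, was the gene that rose, from 109 ± 8.50 to 147 ± 33.4 CPM (0.44, adjusted p = 0.0067, edgeR). Without CML 2wk replicate 2 the counts were 9 lower and 1 higher.

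Phosphatases that act on the tail tyrosine were called for 6 of 6 genes, 5 lower and 1 higher (median -0.46). Ptprc, which encodes CD45, rose from 456 ± 12.5 to 549 ± 52.6 CPM (log2 fold change 0.27, adjusted p = 0.0027, edgeR), and every CML 2wk library (497 to 619 CPM) was above every CTRL library (442 to 478 CPM). Ptprj (CD148) fell from 120.4 ± 5.71 to 70.9 ± 11.9 CPM (-0.76), Ptpn11, which encodes SHP-2, from 179 ± 8.80 to 107 ± 12.1 CPM (-0.75), and Ptpn1 from 92.8 ± 4.53 to 65.5 ± 3.74 CPM (-0.50). The rise of Ptprc was called in 19 of 20 alternatives and not with no filter on low counts (0.20, adjusted p = 0.0688, edgeR).

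Receptors with inhibitory ITIM motifs, which SFK phosphorylate to dock SHP-1 and SHIP-1, moved both ways, with 7 of 17 called higher and 3 lower. Fcgr2b, the inhibitory Fc receptor that recruits SHIP-1, rose from 25.9 ± 1.90 to 110.0 ± 32.9 CPM (log2 fold change 2.09, adjusted p = 1.4e-07, edgeR). Lilrb4a rose from 6.27 ± 3.21 to 20.4 ± 8.67 CPM (1.70) and Siglece from 1.84 ± 0.928 to 5.09 ± 2.32 CPM (1.45). The B cell receptors Cd22 and Cd72 fell from 3.74 ± 0.936 to 0.816 ± 0.581 CPM (-2.20) and from 28.2 ± 3.00 to 12.3 ± 2.56 CPM (-1.20), and Ceacam1 fell by 0.71. The list's median of 0.14 became -0.06 without CML 2wk replicate 2, with the counts at 7 and 3 as before. Monocyte and macrophage markers were called higher for 3 of 9 tested, beside 30.6% of all genes, with sums of 164 to 204 CPM in CTRL and 364 to 933 CPM in CML 2wk and Ms4a7 under 1 CPM throughout. Without replicate 2 they were called higher for 2 of 9, and their median turned from 0.88 to -0.16. Vcan, named after its values were seen, was at 2.55 with replicate 2 and at 0.70 without it (adjusted p = 0.128, edgeR). The part of these markers in the receptor levels was not tested. Lilrb4a, Fcgr2b and Fcgr3 have close relatives whose reads the counting may split, so their values are less certain.

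Activating receptors and their partners were called higher for 5 of 12 genes and lower for 1 (median 0.31). Fcer1a, the alpha chain of the IgE receptor that signals through Lyn, rose from 1.59 to 4.13 CPM in CTRL to 16.5 to 181 CPM in CML 2wk, a log2 fold change of 4.46 (adjusted p = 3.9e-06, edgeR) and of 3.81 without replicate 2, in which it was highest. Fcgr3 rose by 2.08 and Csf2rb, the beta chain of the IL-3 and GM-CSF receptors, from 91.7 ± 9.02 to 194 ± 46.6 CPM (1.08). Csf3r, the G-CSF receptor, fell from 129.8 ± 9.60 to 96.0 ± 14.2 CPM (-0.43). Fcer1a is also among the mast cell and basophil markers given above. Without replicate 2 the counts were 5 higher and 3 lower.

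Substrates and effectors were lower for 12 of 22 tested genes and higher for 3 (median -0.42); Bcar1 did not pass the filter. Plcg1 fell from 133 ± 3.80 to 69.3 ± 14.9 CPM (log2 fold change -0.94, adjusted p = 9.2e-06, edgeR), Hcls1, an SFK substrate that binds actin, from 153.8 ± 9.997 to 81.4 ± 10.8 CPM (-0.92), and the B cell linker Blnk from 11.5 ± 4.85 to 3.43 ± 2.75 CPM (-1.75). Lat2, the linker of mast cells and B cells, rose from 35.8 ± 3.24 to 50.0 ± 5.20 CPM (0.48), and the adaptor Skap2 from 166 ± 6.95 to 225 ± 17.0 CPM (0.44). Tec, a kinase, rose by 0.19 (adjusted p = 0.0264, edgeR), a call that held in 11 of 20 alternatives and was lost, among others, without replicate 2 (adjusted p = 0.0621, edgeR). Syk, the kinase that acts next to SFK at immune receptors and was named after its values were seen, fell from 303 ± 11.1 to 191 ± 8.31 CPM (-0.66, adjusted p = 1.3e-07, edgeR).

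Other inositol phosphatases, the enzyme class of SHIP-1, were called lower for 9 of 12 genes and higher for 1 (median -0.37). Inpp4a fell by 0.65, Inpp5e by 0.62 and Ocrl by 0.62 on the log2 scale, against 0.80 for Inpp5d. Inpp4b rose from 26.7 ± 1.70 to 37.0 ± 13.01 CPM (0.47, adjusted p = 0.0240, edgeR), with replicate 2 the highest at 62.3 CPM. Its log2 fold change was 0.25 without replicate 2 (adjusted p = 0.0231, edgeR). The call was lost without replicates 2 and 4 (0.19, adjusted p = 0.0702, edgeR), without CTRL replicate 4 (0.44, adjusted p = 0.0517, edgeR) and with no filter on low counts (0.39, adjusted p = 0.0550, edgeR). Without replicates 2 and 4 the list stood at 0 higher and 10 lower. Inppl1, which encodes SHIP-2 and was named after its values were seen, was not called (-0.29, adjusted p = 0.450, edgeR), but was at -0.82 without replicate 2 (adjusted p = 0.00029, edgeR). In each of these lists the shares stand beside 30.6% higher and 29.0% lower over all genes.

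**Figure D5:**
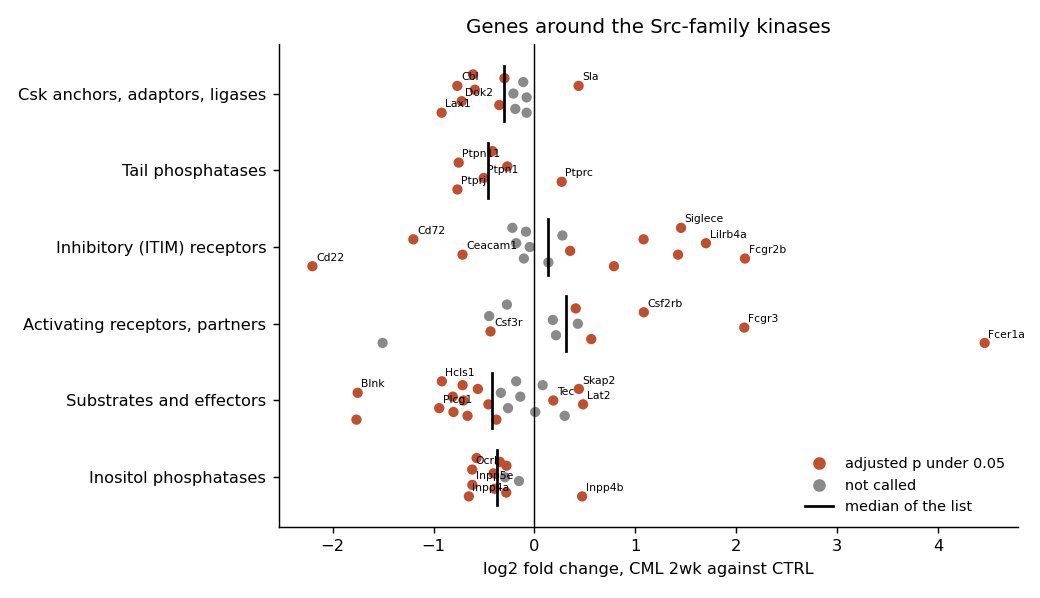
Log2 fold change of CML 2wk against CTRL (x axis) for every tested gene of the 6 lists around the kinases; each point is a gene, black lines are list medians, and the named genes are written beside their points. Inositol phosphatases and tail phosphatases lie mostly to the left of 0, and the receptor lists spread from -2.20 to 4.46.

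All values here are of mRNA, so neither the amount of these proteins nor their phosphorylation, which sets SFK activity, was measured.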

How the data were processed

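Raw read counts per gene were deposited for each of 12 libraries by the authors, with 6 CTRL and 6 CML 2wk samples taken from the labels. The submitters' processing notes name FastQC 0.11.9, fastp 0.23.2, STAR 2.7.10a, featureCounts 2.0.1 and DESeq2 1.36.0 with mm39, whereas the published methods name other trimming and alignment tools. The annotation release, the strand setting and the treatment of multiply mapped reads are not given in the sources used here. Reads shared with overlapping or antisense genes therefore cannot be told apart.

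Tables were joined by Ensembl identifier, and 52073 of 56748 identifiers matched a symbol of GENCODE M21 (GRCm38). That release was used only for names and merged exon lengths, and no coordinate was carried between builds. Counts naming no gene numbered 0. Genes were filtered with filterByExpr, scaled by TMM and tested with the edgeR 4.0.16 quasi-likelihood test in R 4.3.3, with Benjamini-Hochberg adjustment over 18438 genes and a threshold of 0.05. Values per library are TMM-scaled CPM, and log2 CPM used a prior count of 2. Exact permutation tests were two-sided over 924 splits. Ratios used counts plus 0.5. The smallest chi-square per degree of freedom between replicates was 4.07, so none was a copy of another.

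The members and gene lists were chosen with earlier results of these data known. Named genes are the 8 members, 3 other SFK, up to 3 genes each way per list with the largest called change at 1 CPM or more, and the 3 genes most like each member; exceptions are stated, and some genes the rule would name are not reported here. The test was checked on simulated data for this comparison: of 200 changed genes among 18438, it recovered 24 of 66 at a log2 change of 0.5, 40 of 67 at 1 and 54 of 67 at 2, none with the wrong sign, and called 8 of 18238 unchanged genes. Far fewer genes changed there than the 59.5% called in the data, which makes the adjusted p stricter. Both groups were also drawn with the same spread per gene. In the data the biological coefficient of variation was 10.8% in CTRL and 32.4% in CML 2wk, or 24.5% without replicate 2. These rates therefore give neither the power of the test on the data nor its rate of false calls there. Alternatives were DESeq2 1.42.0, RLE or upper-quartile factors, other filters, a replicate block, each library left out, replicate 6 of both groups left out and, added after seeing the data, CML 2wk libraries 2 and 4 left out. Depth was 16150817 to 41832868 counts per library.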

Additional observations from a re-analysis of the deposited data

Results flagged for a closer look

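Dixon's test picked out a single library in 6 of 38 groups of 6 values, where chance alone gives about 1.9. Of these, 3 were in CML 2wk replicate 2: Src at 18.4 CPM against 5.05 in the next library, Frk at 5.22 CPM against 1.52, and the ratio of Src to Csk at 0.120 against 0.0335. A further 2 were in CML 2wk replicate 6, with Fgr at 6.81 CPM against 4.82 and the ratio of Lyn to Inpp5d at 0.769 against 0.635. Blk stood at 1.14 CPM in CML 2wk replicate 4 against 0.345 in the next library.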

How the results depend on the processing

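Csk, Inpp5d and Fyn kept their direction and their call under all 20 alternative fits, and the ratios of Lyn to Csk, Inpp5d and Fyn kept theirs under every alternative run. Lyn was called in none, but its log2 fold change turned to 0.051 with upper-quartile factors (adjusted p = 0.33, edgeR) and to 0.020 with a filter of 1 CPM in 6 libraries (adjusted p = 0.74, edgeR). The members called lower numbered 3 to 5 with 1 library left out, 5 without CML 2wk replicate 2 (Src and Ptpn6 added) and 5 without CML 2wk replicate 6 (Fgr and Ptpn6 added). Genes called over all numbered 10185 to 12007 in those fits. Fgr was called with DESeq2 at -0.67 and without replicate 6 of both groups at -0.92, and ranged from -0.80 to -0.35 with 1 library left out. Src was called without CML 2wk libraries 2 and 4 at -1.96 and ranged from -1.58 to -0.36 with 1 library left out; DESeq2 gave it no adjusted p. Ptpn6 was called with no filter at -0.26 and ranged from -0.25 to -0.15. Differences of mean log2 CPM by the exact test ranged from -0.72 to -0.32 for Fgr, from -1.65 to -0.96 for Src (exact p = 0.00216 to 0.117) and from -0.26 to -0.16 for Ptpn6; without replicate 6 of both groups they were -0.83 for Fgr and -1.09 for Src, and with library size alone -0.20 for Ptpn6. The log2 ratio of Src to Csk ranged from -0.97 to -0.29 and was -1.23 without CML 2wk libraries 2 and 4. That of Yes1 to Csk ranged from 0.20 to 0.49, past the threshold in none. That of Fgr to Csk turned from 0.16 to -0.023 without CTRL replicate 6, reached 0.38 at its highest, and was -0.13 without replicate 6 of both groups. That of Lyn to Ptpn6 ranged from 0.15 to 0.24, and was 0.19 without replicate 6 of both groups and 0.17 without CML 2wk libraries 2 and 4, past the threshold for neither. Causes of these shifts were not tested, beyond the libraries that each setting leaves out. The replicate numbers gave no sign of pairing the samples. Deviations of same-numbered libraries correlated at -0.125 to 0.068, and 1 of 6 CTRL libraries correlated best with its own number. A weak pairing could give such values too, so this check does not exclude it. With the replicate number as a block 9975 genes were called, Src was called at -1.19 (adjusted p = 0.0311, edgeR), and no other member's call changed. Depth limits the sparse members, since Src, Fgr and Yes1 had 28 to 580 counts per library and Blk 0 to 117.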
